A study of Homo sapiens with 20 samples.

Results

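The loci of FAM81A, AKAP13 and MLIP, with that of CD48, hold the largest losses of RUNX1 binding measured at well-covered peaks when PU.1 was knocked down in THP-1 cells. Here a locus is every RUNX1 peak within 50 kb of the gene's RefSeq span on GRCh38. By this rule 13 of the 26642 peaks belonged to the loci, with 5 peaks at FAM81A, 5 at AKAP13 and 3 at MLIP. The genes were picked from the measured values themselves: in each of them 1 strongly reduced peak, called the index peak, was among the 5 peaks with the largest reduction, given a mean of at least 50 normalised counts and knockdown libraries below the control libraries in both batches. The change at the index peaks is therefore described and not tested, and the question is what happened at the other 10 peaks around them.

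THP-1 is a human monocytic leukemia cell line. RUNX1-bound chromatin was precipitated from THP-1 cells carrying a doxycycline-inducible shRNA against PU.1 (knockdown, 6 libraries) and from THP-1 cells carrying a doxycycline-inducible scramble shRNA (control, 6 libraries). Both received doxycycline and both were harvested at a single time after induction, so the groups differ in the shRNA, each of which was represented by 1 engineered line. The libraries came from 2 experimental rounds (batches), with 3 control and 2 knockdown libraries in batch 1 and 3 control and 4 knockdown libraries in batch 2. A further 8 IgG libraries are not part of the count table and were not used. The replicates had their own immunoprecipitations and library preparations, but nothing states that the cultures were separate, so the errors below measure the spread between these libraries. Reads in peaks ranged from 630247 to 1199004 in control and from 938745 to 1719840 in knockdown libraries. Neither PU.1 level nor any RNA was measured in these libraries, so the knockdown and the identity of the cells were not checked here.

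RUNX1 is the DNA-binding subunit of a core-binding factor, and it binds many regulatory elements of blood cells together with PU.1, an ETS-family factor that drives myeloid differentiation. The encoded products of the genes are unrelated. AKAP13, also known as AKAP-Lbc, anchors protein kinase A and is an exchange factor that activates the small GTPase RHOA, while MLIP is a protein of striated muscle that binds lamin A/C. FAM81A is a family member named for sequence similarity. A peak inside a gene need not regulate that gene, and no expression was measured.

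Of 4 RefSeq promoters of the genes (windows of 250 bases before to 50 after a transcription start), 1 lay under a RUNX1 peak. This is the first AKAP13 promoter, at chr15:85380353-85380652 on the plus strand of GRCh38.p14, and it is shown because it gives the gene's start a site to set against the strongly reduced peak inside the same gene. Capitals mark the letters TTCC, the ETS core GGAA on the other strand.
AKAP13 promoter: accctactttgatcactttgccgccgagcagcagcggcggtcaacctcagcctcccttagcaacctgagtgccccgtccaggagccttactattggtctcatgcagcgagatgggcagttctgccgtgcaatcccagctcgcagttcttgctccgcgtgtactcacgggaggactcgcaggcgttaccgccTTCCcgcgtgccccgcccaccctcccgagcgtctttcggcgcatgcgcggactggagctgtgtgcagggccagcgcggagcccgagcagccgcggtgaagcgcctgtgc
The window had a GC content of 65.7% and held this ETS core 1 time. The RUNX core TGTGGT (or ACCACA on the other strand) was not found in any of the 4 windows, and 13.1% of the 35116 RefSeq promoters of the same length hold it. The longer ETS site GAGGAA (or TTCCTC), which contains the core, was not found either and occurs in 27.9% of promoters, whereas GGAA or TTCC occurs in 95.5%. The sequences under the index peaks were not searched, so these matches say nothing of the lost peaks. The windows of FAM81A and MLIP lay 4449 bp and 32015 bp from the closest peak, and the second AKAP13 window lay 48493 bp away. The promoter table holds no window for the start of FAM81A's RefSeq span, which lies close to a peak described below.

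Across the 13 peaks, 7 were called lost and 2 were called gained after PU.1 knockdown, and 4 were not called. A call required a DESeq2 adjusted p under 0.05 and a fold change over 1.1, with batch as a covariate. Over all 26642 peaks 42.0% were called, 20.7% lost and 21.3% gained. The 3 index peaks had to be called by the way they were chosen, so nothing is read from the members' count. Of the 10 neighbours, 4 were lost, 2 were gained and 4 were not called, with a median log2 fold change of -0.53 (8 of 10 below 0) beside -0.025 over all peaks. The loci therefore contained further reduced peaks, but also peaks with more RUNX1 signal after knockdown.

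**Figure D1:**
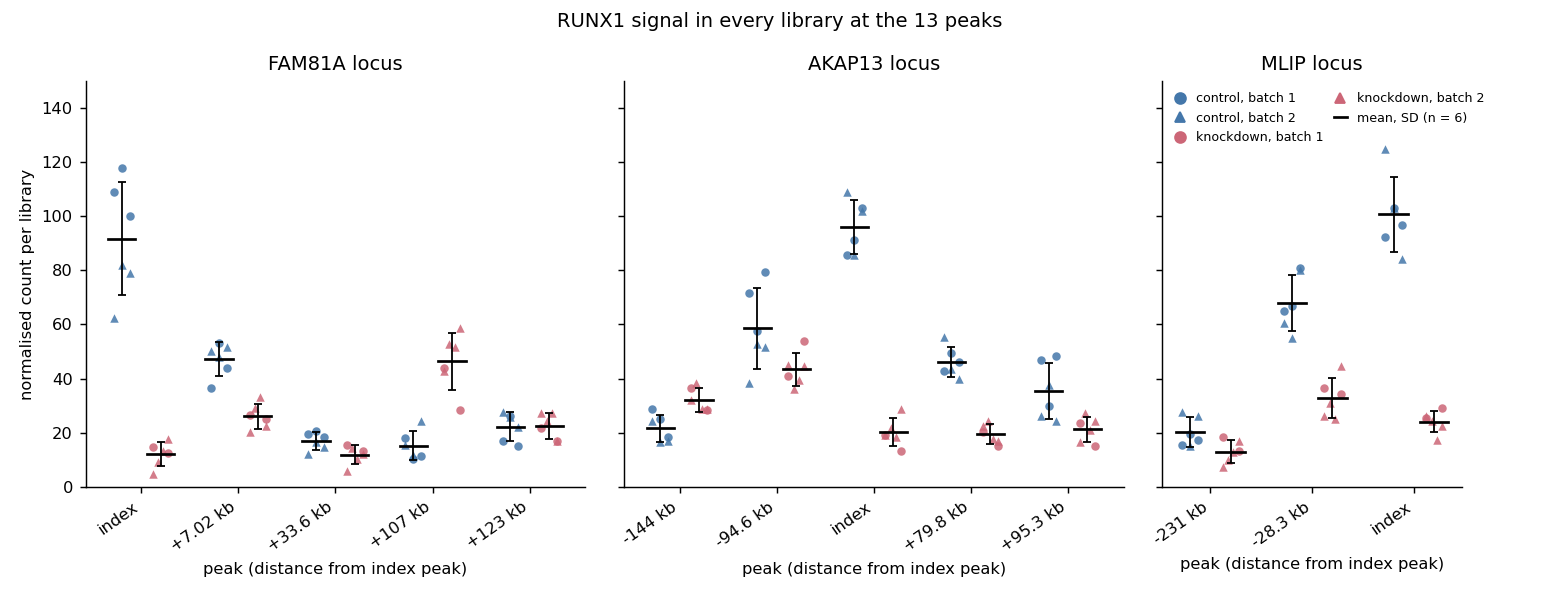
RUNX1 signal as normalised count (y axis) in every library at each of the 13 peaks (x axis, named by distance from the index peak of the locus); circles are batch 1, triangles batch 2, and bars are the mean and SD of 6 libraries. At the index peaks every control library lies at 62.4 or above and every knockdown library at 29.0 or below, while the FAM81A peak at +107 kb runs the other way.

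At FAM81A (gene ID 145773, chromosome 15, 59397981 to 59523555) the reduction was deep at the index peak, smaller at the closest neighbour, and opposite in sign further along the gene. The index peak (59399196 to 59400110, 915 bp wide) lies 1215 bp inside the start of the gene's span. Relative to the transcription start of the promoter table its centre lies at -38.5 kb. The gene table used here gives no exons, so exonic or intronic position is not stated. Normalised counts, which are reads divided by DESeq2's size factor of the library, had a lowest value of 62.4, a median of 91.2 and a highest value of 118 in control libraries, and 4.75, 12.9 and 17.7 in knockdown libraries. The groups were far apart, and no knockdown library came near the control range. The means were 91.8 ± 20.9 and 12 ± 4.51 (SD, n = 6 each), a log2 fold change of -2.84 ± 0.20 (SE), which leaves 14% of the control level. Behind these values were 36 to 127 reads per control library and 4 to 21 per knockdown library. Control libraries of batch 1 (mean 109) were above those of batch 2 (mean 74.5) at this peak, and the log2 fold change was -3.01 ± 0.35 within batch 1 and -2.70 ± 0.30 within batch 2.

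The closest neighbour at FAM81A lay 7.02 kb further into the gene (59406230 to 59407118), where the annotation also places the pseudogene RPL7AP75. Its normalised count ran from 36.4 over a median of 49.2 to 53.0 in control and from 20.2 over 25.8 to 33.1 in knockdown libraries, so the groups did not overlap. It was lost (log2 fold change -0.86 ± 0.19) and kept 55.2% of the control level, against 14% at the index peak. The next peak, at +33.6 kb, was lower and not called (17.0 ± 3.14 in control and 11.9 ± 3.47 in knockdown, SD, n = 6 each; -0.43 ± 0.29).

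At +107 kb from the index peak, still within FAM81A (59506584 to 59507369), RUNX1 signal was gained. Control libraries ran from 10.2 over a median of 13.7 to 24.2 normalised counts, and knockdown libraries from 28.3 over 47.7 to 58.7. Each knockdown library was above each control library in both batches. The means of 15.3 ± 5.31 and 46.3 ± 10.7 gave a log2 fold change of 1.52 ± 0.23, with 1.47 ± 0.48 in batch 1 and 1.56 ± 0.31 in batch 2. This peak stood at 19.4 normalised counts per kb of peak width in control (percentile 11.8 of all peaks) and at 59.0 per kb in knockdown libraries (percentile 86.3). In the index peak the order was the reverse, from 100.4 per kb (percentile 98.0) to 13.2 per kb (percentile 3.31). The index peak was chosen for a mean of at least 50 and a large loss. Its high control level and low knockdown level follow in part from this choice, and nothing is read from them. The peak at +123 kb, 216 bp before the end of the span, had 22.3 ± 5.27 normalised counts in control and 22.5 ± 4.76 in knockdown libraries (-0.042 ± 0.24, not called), and its sign changed with the processing.

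AKAP13 (gene ID 11214, chromosome 15, 85380603 to 85749358) had a reduced index peak inside the gene with 2 more lost peaks downstream of it, while its promoter peak was not called and a peak before the gene was gained. The index peak (85475027 to 85475853, 827 bp) lies 94.8 kb after the first transcription start. Control libraries ran from 85.6 over a median of 96.7 to 109 normalised counts and knockdown libraries from 13.2 over 19.1 to 28.9. Here too the groups were far apart, and the spread among control libraries was small (96.1 ± 9.93 against 20.1 ± 5.15, SD, n = 6 each). The log2 fold change was -2.31 ± 0.17, or 20.2% of control, from 63 to 98 reads per control and 16 to 33 per knockdown library. Within batches it was -2.54 ± 0.35 and -2.17 ± 0.23.

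Downstream, the peak at +79.8 kb (85554900 to 85555638) had from 40 over a median of 44.7 to 55.5 normalised counts in control and from 15.1 over 19.0 to 24.4 in knockdown libraries. The groups were separate in both batches, and the peak was called lost, at 41.7% of control (log2 fold change -1.26 ± 0.20). At +95.3 kb (85570239 to 85571207) the values were 24.2, 33.6 and 48.4 in control and 15.1, 22.4 and 27.1 in knockdown libraries. This peak was also called lost (-0.69 ± 0.23, 61.9% of control), but the groups overlapped, it was called in neither batch alone (-1.09 ± 0.42 and -0.38 ± 0.32), and the call ended without knockdown replicate 2 (-0.51).

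The widest of the 13 peaks covers the start of AKAP13 (85379861 to 85381728, 1868 bp), with the promoter printed above and the microRNA gene MIR7706. It had 38.2, 55.2 and 79.5 normalised counts in control and 36.3, 42.9 and 54.0 in knockdown libraries (lowest, median, highest), and the groups overlapped. Its log2 fold change of -0.37 ± 0.16 was not called. It was called by edgeR (-0.36), when batch was left out of the fit (-0.44), and without control replicate 2 (-0.41) or control replicate 4 (-0.44). The same gene thus held a peak at 20.2% of its control level and a promoter peak at 77.4%. Per kb of width, the index peak went from 116 (percentile 99.0) to 24.3 and the promoter peak from 31.3 (percentile 42.1) to 23.3 normalised counts. On this scale the levels of the pair were close only after knockdown. The index peak's high control level and low knockdown level follow in part from the way it was chosen, so this comparison is only described. Not divided by width, the promoter peak went from 58.5 ± 14.9 to 43.5 ± 6.12 normalised counts (SD, n = 6 each). It was thus below the index peak in control (96.1) and above it in knockdown libraries (20.1).

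Before the gene, a peak that overlapped no gene (85330790 to 85331581), 49022 bp from the start of AKAP13 and hence just inside the 50 kb window, was called gained. It had 16.4, 21.4 and 28.6 normalised counts in control and 28.3, 30.5 and 38.3 in knockdown libraries, which touched at the edges (log2 fold change 0.61 ± 0.22). Of the 9 calls this was the one lost under the most alternatives. It was not made in either batch alone (0.44 ± 0.42 and 0.78 ± 0.33), and it ended without control replicate 5 (0.54), control replicate 6 (0.54), knockdown replicate 1 (0.59) or knockdown replicate 4 (0.55).

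MLIP (gene ID 90523, chromosome 6, 54018970 to 54266280) held a pair of peaks within the gene, both lost. The index peak (54216848 to 54217604, 757 bp) lies 198 kb after the transcription start and had, per kb of width, the highest control level of the 13 peaks (133 normalised counts per kb, percentile 99.5). A high control level follows in part from the choice of the index peaks, by a mean of at least 50 and a large loss, and nothing is read from it. Control libraries ran from 84.3 over a median of 100 to 125 normalised counts and knockdown libraries from 17.2 over 25 to 29.0. The groups were far apart in both batches. The means of 101 ± 13.8 and 24.1 ± 4.01 (SD, n = 6 each) gave a log2 fold change of -2.05 ± 0.17, which is 24.1% of control, from 71 to 111 reads per control and 22 to 44 per knockdown library. Within batches the log2 fold change was -1.82 ± 0.30 and -2.21 ± 0.24.

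The other peak in MLIP, 28.3 kb before the index peak (54188584 to 54189367), was itself strong in control libraries, at 86.8 normalised counts per kb (percentile 96.5). It ran from 55.1 over a median of 66.0 to 80.7 normalised counts in control and from 24.9 over 32.6 to 44.7 in knockdown libraries, without overlap. It was called lost, at 48.6% of control (log2 fold change -1.04 ± 0.17), and within batches the change was -0.99 ± 0.31 and -1.06 ± 0.25. Outside the gene, 32265 bp before it and within the non-coding gene LOC101927189, a weak peak (53986131 to 53986705) had 20.3 ± 5.46 normalised counts in control and 13 ± 4.15 in knockdown libraries. Its log2 fold change of -0.63 ± 0.28 was not called, but edgeR (-0.61), the fit without batch (-0.63) and the fits without control replicate 1 (-0.68) or knockdown replicate 1 (-0.78) called it lost.

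**Figure D2:**
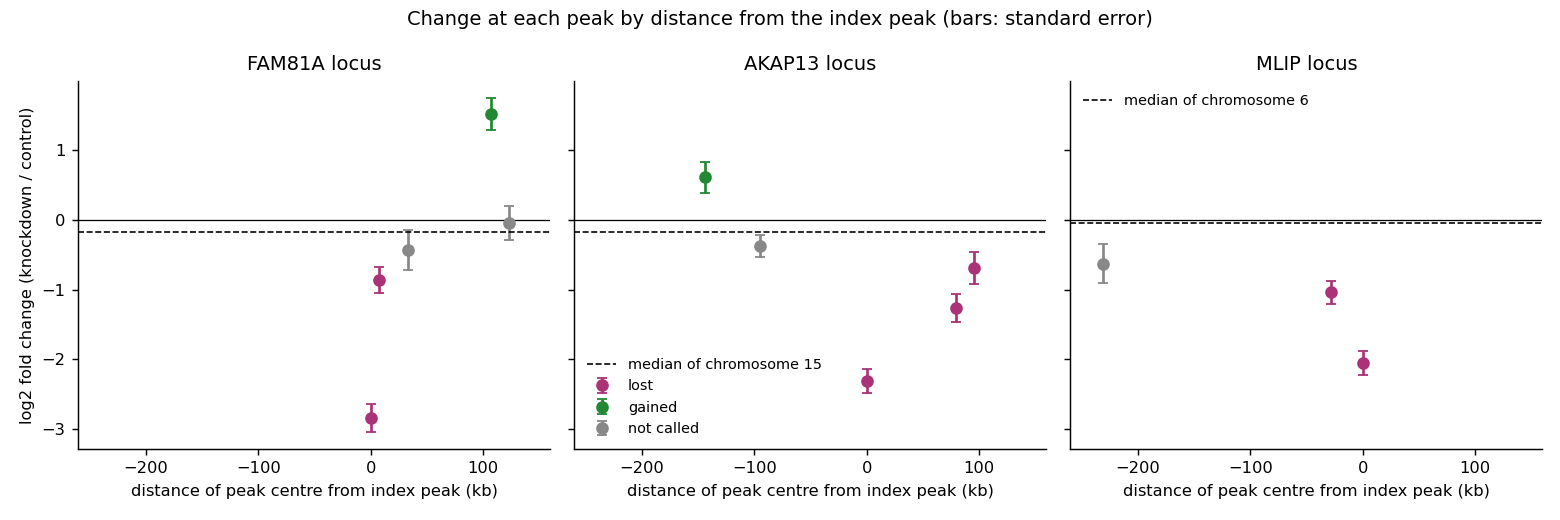
Log2 fold change of knockdown against control (y axis, with its SE) at each peak by the distance of its centre from the index peak in kb (x axis), with the median of the chromosome dashed. FAM81A has a gained peak at +107 kb (1.52) and AKAP13 one before the gene (0.61), while both other peaks of MLIP lie below the median of chromosome 6 of -0.044.

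Whether the loss was that of a lone site or of the region was looked at through the neighbours. With the index peak left out, the median log2 fold change of the neighbours was -0.24 at FAM81A (4 peaks, from -0.86 to 1.52), -0.53 at AKAP13 (4 peaks, from -1.26 to 0.61) and -0.83 at MLIP (2 peaks, -1.04 and -0.63). The log2 fold change of the index peak minus that median was -2.61 at FAM81A, -1.78 at AKAP13 and -1.22 at MLIP. The index peaks were chosen for their large loss, so a gap below 0 follows from the choice and is only described. Summed over the neighbours, normalised counts were 102 ± 9.87 in control and 107 ± 14.8 in knockdown libraries at FAM81A, 162 ± 24.6 and 116 ± 6.72 at AKAP13, and 88.4 ± 12.7 and 45.9 ± 10.8 at MLIP (SD, n = 6 each). The sums did not overlap between groups at AKAP13 (133 to 192 in control, 107 to 126 in knockdown libraries) or at MLIP (70.3 to 106 and 33.3 to 61.5). They overlapped at FAM81A (88.7 to 113 and 83.6 to 122), where the sum combines the lost peak at +7.02 kb with the gained peak at +107 kb. No locus therefore had the index peak as its only lost peak, and at FAM81A and AKAP13 the neighbours did not all go the same way. Over all peaks 20.7% were lost and 21.3% gained, so called neighbours in both directions are not particular to these loci. The windows extend from the whole gene, and at AKAP13 no other peak lay within 50 kb of the index peak itself. With 2 to 4 neighbours a locus, these medians and sums describe the peaks found and were not tested.

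Beyond the 50 kb windows the closest peak on each side, 6 in all, was not called. At FAM81A these peaks were 97.1 kb before the span, within MYO1E (-0.16 ± 0.15), and 127 kb after it, within GTF2A2 (0.44 ± 0.31). At AKAP13 they were 145 kb before (0.37 ± 0.17, nearest PDE8A) and 1169.9 kb after the gene, within AGBL1 (-0.25 ± 0.18). At MLIP they were 224 kb before, within LRRC1 (0.031 ± 0.15), and 544 kb after (0.30 ± 0.24, nearest FAM83B). The AKAP13 and MLIP loci were therefore followed by long stretches without RUNX1 peaks. FAM81A was the densest of the loci with 22.2 peaks per Mb of window, against 10.7 at AKAP13, 8.64 at MLIP and a mean of 9.0 over the table.

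Other lost peaks often lay near a lost peak in this table. A total of 814 lost peaks had a mean of at least 50 normalised counts and lay below the control libraries of their batch in every knockdown library. Of these, 43.7% had another lost peak within 50 kb (edge to edge) and 34.8% a gained one, beside 32.4% and 34.4% of all peaks. Only 6 of the 814 had a log2 fold change of -2 or lower, the 3 index peaks, the CD48 pair and the peak on chromosome 21 described below. Of these 66.7% had a lost neighbour and none a gained one, with the members themselves among them. The CD48 peaks lie side by side, so each was the lost neighbour of the other. That share was thus partly set by the choice of peaks, and nothing is read from it. Measured this way, the FAM81A index peak had 2 neighbours (1 lost), the MLIP index peak 1 (lost) and the AKAP13 index peak none, its closest neighbour being 79047 bp away. The median distance to the closest neighbour was 12.2 kb among the 814 peaks, so the FAM81A neighbour at 6120 bp was closer and those of MLIP (27481 bp) and AKAP13 further away than the median.

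Both FAM81A and AKAP13 lie on chromosome 15, whose 877 peaks were shifted toward loss. Its median log2 fold change was -0.18, the second lowest of the 22 autosomes (medians from -0.28 to 0.14), with 29.0% of its peaks lost and 15.7% gained. The shift was alike in the batches (-0.19 and -0.17). Relative to this median the index peaks stood at -2.66 for FAM81A and -2.13 for AKAP13, and the neighbours had medians of -0.054 and -0.35. After the same subtraction the lost neighbours were at -0.68 (FAM81A, +7.02 kb), -1.08 (AKAP13, +79.8 kb) and -0.51 (AKAP13, +95.3 kb), and the gained peaks at 1.70 and 0.79. The chromosomal shift was thus small beside the index peaks, but of the size of the neighbour median at FAM81A. The part of copy number or of chromosome-wide signal in the shift was not tested, since the table holds no input DNA.

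Chromosome 6 had a median of -0.044 over 1693 peaks, with 22.3% lost and 19.3% gained. The MLIP index peak was at -2.01 relative to it and the neighbour median at -0.79. The peaks within 5 Mb on each side, the locus left out, had medians of -0.15 around FAM81A (97 peaks), -0.19 around AKAP13 (102 peaks) and 0.036 around MLIP (66 peaks). Around MLIP the median of the surrounding peaks was thus not below 0.

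**Figure D3:**
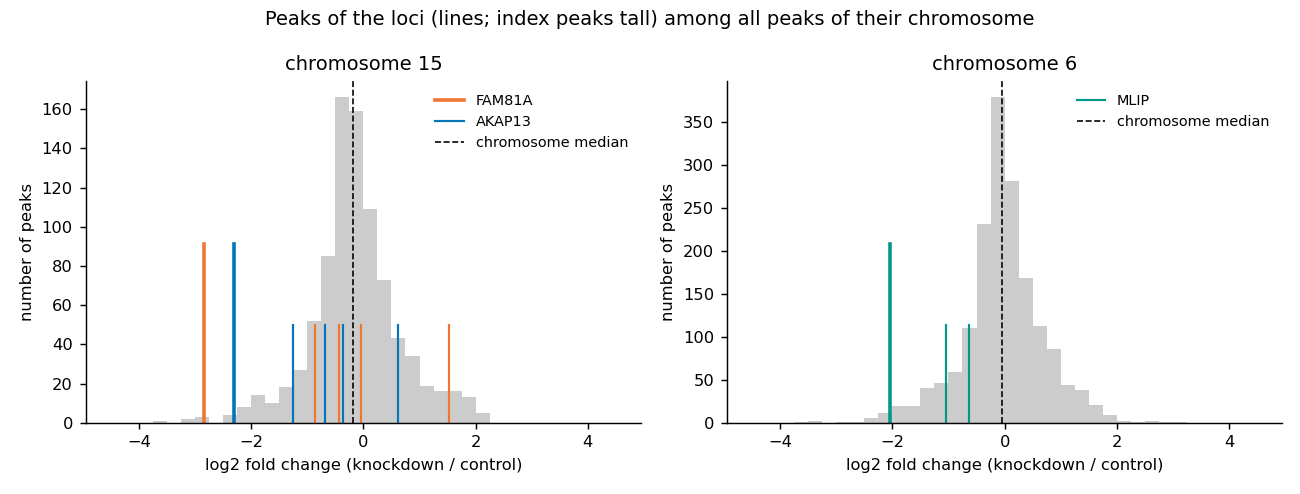
Number of peaks (y axis) by log2 fold change (x axis, bins in grey) on chromosomes 15 and 6, with tall lines for the index peaks, short lines for the other peaks of each locus and the chromosome median dashed. The index peaks of FAM81A (-2.84), AKAP13 (-2.31) and MLIP (-2.05) lie in the thin left tails. The other peaks run from -1.26 (AKAP13 +79.8 kb) to 1.52 (FAM81A +107 kb).

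As a measure that does not depend on scaling between libraries, the index peak's share of all reads of its locus was taken in each library. The reads that chose the index peaks are part of this share, so its fall follows in part from the choice. The shares are therefore described and not tested. At FAM81A it ran from 37.1% over a median of 48.2% to 54.5% in control and from 4.71% over 10.9% to 13.9% in knockdown libraries. At AKAP13 the values were 31.1%, 36.2% and 43.5% in control and 10.5%, 14.4% and 20.1% in knockdown libraries. MLIP had 44.2%, 53.9% and 59.5% in control and 26.7%, 34.6% and 44.0% in knockdown libraries. The groups did not overlap at any locus, but at MLIP they nearly touched: the lowest control library, replicate 6, had a share of 44.2% (95% Wilson interval 37.2% to 51.5%) and the highest knockdown library, replicate 3, a share of 44.0% (31.2% to 57.7%). The mean share went from 47.1% ± 7.13 to 10.1% ± 3.58 at FAM81A, from 37.5% ± 4.89 to 14.6% ± 3.13 at AKAP13 and from 53.3% ± 5.70 to 34.9% ± 6.13 at MLIP (SD, n = 6 each). The step was smallest at MLIP. A further lost peak lay within each of the genes, so such a peak is not particular to MLIP. These shares rest on 50 to 272 reads a library, and the intervals cover counting error only.

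**Figure D4:**
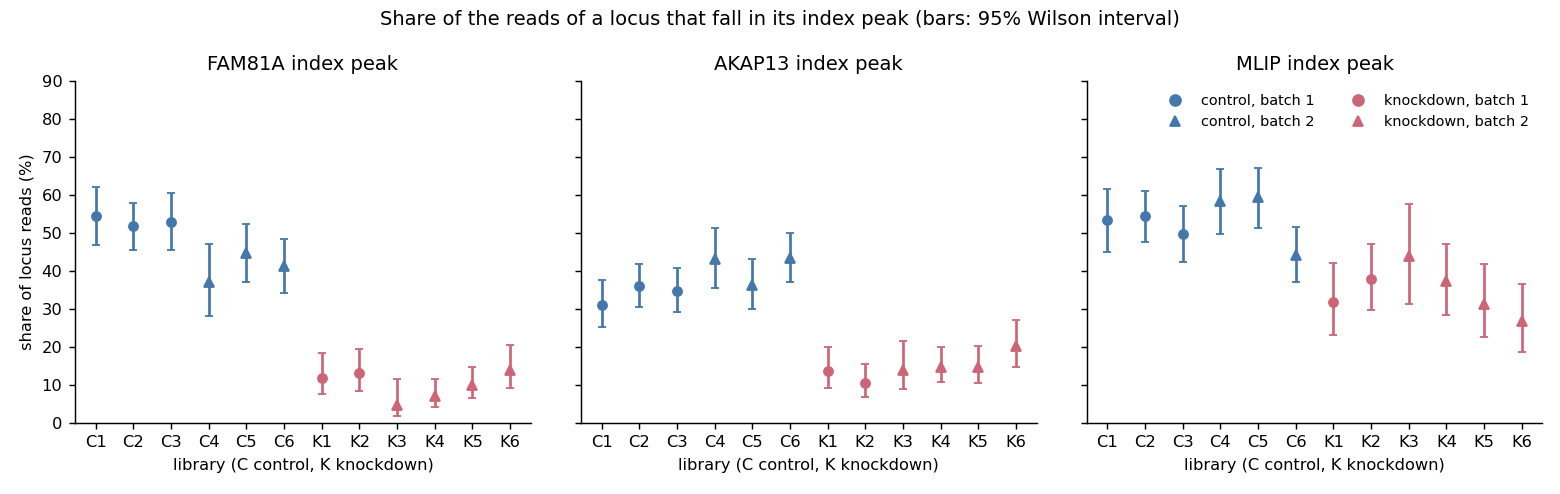
Share of the reads of a locus that fall in its index peak in percent (y axis) for each library (x axis, C control and K knockdown with the replicate number), with 95% Wilson intervals; circles are batch 1 and triangles batch 2. Knockdown shares end at 13.9% (FAM81A) and 20.1% (AKAP13), below every control library, while the MLIP groups meet near 44%.

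The batches were also taken alone, where the index peaks, chosen for lying below the controls in both batches, were called lost in both. Of the 10 neighbours, batch 1 called 3 (2 lost, 1 gained) and batch 2 called 4 (3 lost, 1 gained), and 3 of them were called in both. The shares over all peaks were 12% in batch 1 and 25.8% in batch 2. Batch 1 rests on 5 libraries, and its count over all 13 peaks, 6, was 3 without any of control replicate 2, control replicate 3, knockdown replicate 1 or knockdown replicate 2. The sign of the change was the same in both batches at 9 of 10 neighbours, the exception being FAM81A +123 kb (0.0062 and -0.057). In 4 of the 10 neighbours the knockdown libraries lay outside the control libraries in both batches, 3 below and 1 above, beside 28.3% of all peaks (13.9% below and 14.4% above). They were FAM81A +7.02 kb and +107 kb, AKAP13 +79.8 kb and MLIP -28.3 kb. These neighbours kept their call under the other tests, size factors and covariates and without each library, where these tested them. So did the index peaks, which had been chosen from the same libraries for their large loss. With a fold change over 2 in place of 1.1, FAM81A +7.02 kb was no longer called.

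The difference of the effect between batches was tested at the neighbours, by the product of genotype and batch. None passed, with DESeq2 unadjusted p from 0.127 (AKAP13 +95.3 kb, log2 difference 0.73 ± 0.48, SE) to 0.95, and 0 of 26642 peaks had an adjusted p under 0.05. At an unadjusted p under 0.05 there were 0 of 10 neighbours by DESeq2 and 0 by edgeR, beside 2.51% of all peaks by DESeq2. The index peaks had to be lower in both batches, so for them the difference is only described: batch 2 minus batch 1, it was 0.32 ± 0.43 at FAM81A, 0.39 ± 0.38 at AKAP13 and -0.38 ± 0.35 at MLIP. The SE of this difference reached 0.61 among the 13 peaks (FAM81A +33.6 kb), so a moderate difference between batches was not detectable.

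**Figure D5:**
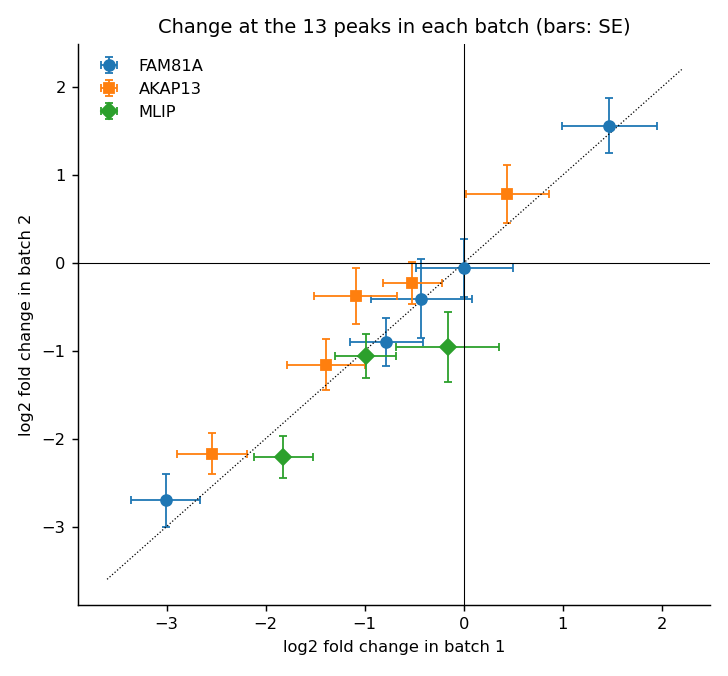
Log2 fold change in batch 1 (x axis) against batch 2 (y axis) at the 13 peaks, with SE bars and the line of equal change dotted. All but 1 of the points lie on the same side of 0 in both batches, and the one farthest from it is MLIP -231 kb (-0.16 in batch 1 and -0.96 in batch 2).

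In the whole table the index peaks stood near, but not at, the extreme. By log2 fold change FAM81A was 46th of 26642 peaks and 4th of the 877 on chromosome 15, AKAP13 162nd and 10th, and MLIP 309th and 20th of the 1693 on chromosome 6. Among the lost peaks below the limit of 50 normalised counts, 299 had a larger reduction than the MLIP index peak. The FAM81A index peak, with a mean of 51.9 over all libraries, was itself only just inside the limit. Among the 814 peaks, the peak next after MLIP lay on chromosome 21 (25298364 to 25299409, 286247 bp from MRPL39) and went from 94.5 ± 9.95 to 23.4 ± 4.59 normalised counts (-2.04 ± 0.17). MLIP and this peak did not differ beyond their errors, so the border of the set is a matter of rank.

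Across the 12 libraries the index peaks varied together, with Pearson correlations of log2(normalised count + 1) of 0.937 (FAM81A and AKAP13), 0.917 (FAM81A and MLIP) and 0.949 (AKAP13 and MLIP). These values share the libraries and the knockdown effect that chose the peaks, and they serve as a description only. Of 6871 peaks with a mean of at least 50, the profile most like FAM81A's was a peak in SIPA1L3 (r = 0.980, log2 fold change -1.0), followed by peaks in DNAH14 (0.978, -1.59) and near SMPD3 (0.972, -0.99). The profiles most like AKAP13's were near LARP4B (0.992, -1.31), near MYO10 (0.987, -1.33) and on chromosome 13, 711326 bp from DIAPH3 (0.983, -1.24). For MLIP they were near SCMH1 (0.995, -0.99), near DUSP10 (0.983, -1.0) and the chromosome 21 peak named above (0.982, -2.04). A correlation does not depend on the size of the change, so peaks with less reduction can reach high values too, and nothing is read from this.

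Genes related to AKAP13, FAM81A and MLIP by family or partner were looked at in the same way, as a list of 27 genes chosen with earlier results of these data known. Their loci held 106 peaks, and 3 genes (AKAP6, AKAP10 and AKAP11) had none. Of these peaks 23 were lost and 19 gained, or 39.6% called beside 42.0% of all peaks, with a median log2 fold change of -0.11. The share called was thus near that of the whole table.

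Among the other A-kinase anchoring proteins, 8 of 31 peaks were lost and 6 gained, or 45.2% called, near the 42.0% of all peaks. The largest changes there were gains of weak peaks at PALM2AKAP2 (2.80 ± 1.02 to 14.8 ± 3.26 normalised counts, log2 fold change 2.43 ± 0.47) and AKAP7 (10.5 ± 4.23 to 31.9 ± 5.65, 1.58 ± 0.28), while a peak at AKAP1, which anchors the kinase to mitochondria, was lost (39.5 ± 6.49 to 18.8 ± 3.85, -1.09 ± 0.21). Among RHOA exchange factors 6 of 32 peaks were lost and 7 gained (40.6% called). ARHGEF11 had 4 gained peaks of 5 (the largest from 9.66 ± 2.59 to 39.8 ± 7.71, 2.03 ± 0.27), beside 21.3% gained over all peaks. ARHGEF2, an exchange factor held on microtubules, had 3 lost of 8 (the largest from 63.7 ± 8.35 to 33.2 ± 1.93, -0.92 ± 0.16), beside 20.7% lost over all peaks. Both genes were named after their values were seen, and nothing is read from their counts.

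The genes of the nuclear lamina and its membrane partners had 7 lost and 3 gained of 29 peaks, or 34.5% called. Beside the 42.0% of all peaks, nothing is read from this difference on so few peaks. LMNA, which encodes the lamin A/C that MLIP binds, had 4 lost and no gained peak of 9, beside 20.7% lost over all peaks. Its largest change was from 22.2 ± 6.09 to 7.62 ± 3.04 normalised counts (-1.52 ± 0.31). LMNB2 had 1 lost and 3 gained of 10 peaks, beside 20.7% lost and 21.3% gained over all peaks. Its largest change started from a low level (6.96 ± 6.44 to 17.5 ± 3.23, 1.43 ± 0.38). With so few peaks a gene, nothing is read from these counts. LMNB1 had no called peak of 4, and LBR and EMD each had 1 lost of 3. The single peak at FAM81B, the paralog of FAM81A, was gained from a low level (6.97 ± 4.44 to 15.8 ± 4.42, 1.21 ± 0.37).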

How the data were processed

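RUNX1 ChIP-seq counts of 12 THP-1 libraries were analysed. The authors aligned reads with bowtie2, removed duplicates, ran MACS2 for each condition in each batch, kept the peaks that IDR found reproducible between batches, merged both conditions and deposited raw counts per peak from featureCounts; the labels' processing notes also name SAMtools and bedtools, and the versions are not given in the sources used here. The count is of reads, and merging sets the peak borders. Peak width was the other deposited column used. The notes name both GRCm38 and GRCh38. Coordinates were taken as GRCh38, since 24.4% of peaks lay within 1 kb of a protein-coding gene end, against 5.48% to 7.58% after shifts of 10 kb to 1 Mb.

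Counts were fitted over all 26642 peaks with DESeq2 1.42.0 in R 4.3.3 (batch and genotype, median-of-ratios size factors, Benjamini-Hochberg adjustment), and called at adjusted p under 0.05 and fold change over 1.1. Fits per batch and a fit with the product of genotype and batch were added, and the scripts were tested on simulated data. Genes and promoters came from RefSeq (GRCh38.p14), where all 3 genes and all 27 listed genes matched. Values per kb divide mean normalised counts by peak width. Libraries of a group differed by more than counting noise (chi-square per degree of freedom 1.29 to 2.24), so each was counted. Reported depth is reads in peaks.

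Members, lists and rules were chosen with earlier results of these data known. Peaks named were the index peak, called peaks, the closest peaks on each side, those at gene ends, those with the highest control level and those at the window's borders; also the 3 most correlated peaks for each index peak and the next peak by the rule. The 5 peaks with the largest reduction included 2 at CD48, which were left out. The values of 1 group of the listed genes are not reported here, though its peaks are in the list's totals. Among the other listed genes, some with large changes or several called peaks were named after their values were seen, and others with similar values were not. The genes of the lamina group were all named. Alternatives were edgeR 4.0.16 (quasi-likelihood, TMM), other size factors, no batch, the replicate number as a block, a minimum of 10 counts in every library, autosomes only, stricter thresholds (0.01, 2-fold), windows of 10 and 100 kb, centring by chromosome or 10 Mb region, and leaving out each library.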

Additional observations from a re-analysis of the deposited data

Results flagged for a closer look

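No library stood apart from the others of its group in the 32 groups of 6 searched (the 13 peaks and the 3 index shares, each in control and knockdown libraries), by the gap of the extreme library over the range of the group, where chance would mark about 1 in 20.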

How the results depend on the processing

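The 9 called peaks were also 9 with TMM size factors, with total counts as size factors and with autosomes only. Other settings gave 11 (edgeR, and without batch, 9 lost and 2 gained each), 8 with an adjusted p under 0.01, 6 with a fold change over 2, and 8 and 9 with windows of 10 and 100 kb. Leaving out 1 library gave 8 to 10, and for the counts per batch 3 to 6 (batch 1) and 7 to 8 (batch 2). With the replicate number as a block in place of batch 8 were called, since AKAP13 -144 kb was not; samples of the same number did not deviate together (correlations from -0.064 to 0.014, and number 3 lies in different batches), so the numbers were not taken as pairs.

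A minimum of 10 counts in every library tested 9 of the 13 peaks and called 7. It removed FAM81A's index, +33.6 kb and +107 kb peaks and MLIP -231 kb, so it says nothing of these. FAM81A +123 kb (-0.042) changed sign with this minimum (0.025), without batch (0.017) and without control replicate 2 (0.055), knockdown replicate 2 (0.012) or knockdown replicate 6 (0.034), with a range of -0.10 to 0.055 without 1 library. Relative to the chromosome median the neighbour median was -0.054 at FAM81A and -0.35 at AKAP13, where it was also -0.35 relative to the median within 5 Mb. Without 1 library the index peaks ran from -2.98 to -2.75 (FAM81A), -2.41 to -2.19 (AKAP13) and -2.13 to -1.96 (MLIP), and the neighbour medians ran from -0.28 to -0.18 (FAM81A), -0.60 to -0.45 (AKAP13) and -0.92 to -0.72 (MLIP). The index share at FAM81A changed by -37.0 percentage points, and by -29.1 with a window of 100 kb. The gene list gave 26 called peaks (17 lost, 9 gained of 56) with a window of 10 kb and 47 by edgeR. The other settings kept the direction of these summaries and moved none by more than 1 SD between libraries or, for counts, 1.5 times. The weak neighbours limit what can be said, since their SEs reach 0.29 on the log2 scale. No input DNA was analysed here, so copy number, accessibility and binding cannot be told apart.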
